A study of Mus musculus with 10 samples.

Results

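The genes described here are ependymal motile cilia genes, a set of 39 gene names. They were chosen by the roles of their proteins, with earlier results of these data known. Of these, 38 had a row among the 24421 genes measured, and all 38 reached the mean of 0.5 CPM (reads per 1000000 reads counted on genes) that 15081 genes passed. Dnah12 had no row and was not analysed here. Motile cilia beat on the ependymal cells that line the brain ventricles and help to move cerebrospinal fluid. Each cilium is built on an axoneme, a ring of microtubule doublets around a central pair, on which dynein arms pull while radial spokes and the central apparatus control the stroke. The transcription factor Foxj1 and the RFX factors switch on these genes, many of which are also used by the multiciliated cells of the choroid plexus and by sperm.

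RNA was sequenced from the ventral hippocampus (vHpc) of ovariectomized (OVX) female C57BL/6 mice, either WT or heterozygous for the BDNF Val66Met knock-in allele (Het-Met), with or without add-back of estradiol (E2). Surgery was at about 70 to 80 days of age. After 2 weeks of recovery the mice drank 300 nM E2 in 0.1% ethanol (about 0.7 µg per day) or 0.1% ethanol alone, the vehicle, for 6 weeks. Of the 10 libraries, WT mice gave 2 with vehicle (numbered 1 and 3) and 2 with E2 (numbered 1 and 2), while Het-Met mice gave 3 with each. All groups share the removal of the ovaries, which is not repeated below, and the ethanol, each library holds RNA pooled from 2 animals, and E2 was taken freely from shared bottles. The knock-in changes the Bdnf protein and cannot be seen in gene counts, so the genotype labels were not checked.

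The number of reads on genes ran from 19820184 to 23267410 per library, so that 1 read was worth 0.0430 to 0.0505 CPM. A gene without a read in a library could still have been at up to 0.129 to 0.151 CPM, the worth of 3 reads, and this covers counting error only. The 17 choroid plexus epithelium markers set some libraries apart from others of their group. Their summed level was 363 and 1643 CPM in vehicle-treated WT mice, 3756 and 2793 CPM in E2-treated WT mice, 4149, 2160 and 2783 CPM in vehicle-treated Het-Met mice and 2322, 806 and 538 CPM in E2-treated Het-Met mice. Vehicle-treated WT replicate 1 and E2-treated Het-Met replicates 2 and 3 were the lowest, and values without each of them are given below.

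The motile cilia genes were expressed at low levels. Per kb of exon their median level was 0.820 CPM, against 5.19 CPM over the 14982 tested genes with a known length. A member drew between 4 and 678 reads in a library. On the scale of CPM per kb, Rsph9 and Rsph1, which encode proteins of the radial spoke head, were highest at 7.92 and 4.82, followed by Foxj1 at 4.11. The lowest were Armc4, which encodes an outer dynein arm docking protein, at 0.138, and the dynein heavy chain genes Dnah11 at 0.149 and Dnah10 at 0.155. Armc4 also lay closest to the level limit with a mean of 0.567 CPM, and no named gene with a row fell below it. Of the 38 genes, 15 share exon sequence with a gene on the opposite strand. The library kit marks strand, but whether counting used it was not given in the sources used here. Reads of Ccdc39 and Ttc14 (16.9% of Ccdc39 exon sequence shared), Rarres2 and Lrrc61 (33.6%) or Tekt2 and Gm12945 (20.8%) may therefore be mixed. Dnah7b and Spag6 have near-identical copies between which reads could be split, and these genes are uncertain for that reason.

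Promoter sequence shows one feature that the choice of genes did not use. RFX factors bind the X-box, and the RefSeq promoter table for GRCm38.p6 held 32 of the 38 genes (37 promoters, each from 250 bases before to 50 bases after a transcript start). The X-box half-site GTTGCC, searched on both strands, lay in the promoters of 14 of the 32 genes (43.8%) and of 3821 of all 27025 genes in the table (14.1%). The full X-box, a longer palindrome that can contain the half-site, lay in 3 genes (9.38%, against 2.16% of all genes), namely Lrriq1, Tekt4 and Rsph9. The forkhead motif GTAAACA, which Foxj1 can bind, lay in 2 genes, Mlf1 and Ak7 (6.25%, against 4.05%). A match is a description of the letters only, and whether matches go with the response to E2 was not tested. Wdr63 and Dnah6, with log2 fold changes of 1.13 and 1.09 with E2 in WT mice, had no half-site. Tekt2 (0.06) and Dnah7b (0.13) held the half-site. Another promoter of Tekt1, not printed here, held none. The 4 sequences printed here are the 250 bases before the start of Spag16, Hydin and Tekt1, members with high E2 to vehicle ratios in WT mice that hold half-sites, and of Lrriq1, which holds a full X-box. They lie at chr1:69826720-69826969 (plus strand), chr8:110266727-110266976 (plus strand), chr11:72361883-72362132 (minus strand) and chr10:103236323-103236572 (minus strand), each is written 5′ to 3′ along its gene, and capitals mark the half-site on either strand or, in Lrriq1, the full X-box.
Spag16: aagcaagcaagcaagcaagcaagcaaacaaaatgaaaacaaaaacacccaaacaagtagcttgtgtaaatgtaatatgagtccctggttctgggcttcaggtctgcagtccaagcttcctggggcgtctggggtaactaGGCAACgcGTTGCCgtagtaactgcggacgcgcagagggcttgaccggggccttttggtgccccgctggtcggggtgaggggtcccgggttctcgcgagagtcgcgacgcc
Hydin: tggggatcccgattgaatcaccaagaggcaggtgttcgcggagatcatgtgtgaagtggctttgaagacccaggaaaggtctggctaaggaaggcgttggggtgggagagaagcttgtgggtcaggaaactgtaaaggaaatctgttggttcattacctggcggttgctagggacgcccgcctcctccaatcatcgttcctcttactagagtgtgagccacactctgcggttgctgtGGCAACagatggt
Tekt1: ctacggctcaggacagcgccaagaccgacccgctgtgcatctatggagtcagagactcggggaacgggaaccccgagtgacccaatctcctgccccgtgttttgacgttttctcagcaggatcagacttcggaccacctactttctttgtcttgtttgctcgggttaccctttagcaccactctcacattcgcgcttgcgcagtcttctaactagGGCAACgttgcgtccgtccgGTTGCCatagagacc
Lrriq1: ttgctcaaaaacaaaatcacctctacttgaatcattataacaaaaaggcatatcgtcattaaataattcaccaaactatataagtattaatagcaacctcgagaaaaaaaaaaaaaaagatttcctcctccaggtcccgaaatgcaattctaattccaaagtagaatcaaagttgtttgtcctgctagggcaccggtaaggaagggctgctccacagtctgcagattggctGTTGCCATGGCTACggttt

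The first question was whether E2 add-back altered these genes in WT mice. In this comparison 36 of the 38 genes had a higher fitted level with E2 and 2 a lower one, whereas 49.0% of all tested genes were higher. Their median log2 fold change was 0.57 (range -0.12 to 1.3), and that of all genes was 0.00. In all, 5 members reached a log2 fold change of 1 or more, as did 0.418% of all genes. No member passed the test, limma on log2(CPM + 0.5) with Benjamini-Hochberg adjustment over 15081 genes and a fold change above 1.3, by which 2 genes in all were called (0.0133%). The smallest adjusted p among the members was 0.0767. At an unadjusted p under 0.05 and the same fold change, 20 members were higher and 0 lower (1.69% and 0.889% of all genes), and edgeR on the recovered reads gave 0 members by adjusted p and 19 by unadjusted p. DESeq2 called Foxj1, Rsph1 and Dnah6 among 14 genes in all, where edgeR called 2. Without E2-treated Het-Met replicate 1 limma called Foxj1 and Dnah6, and its count over all genes is not given here. The E2-treated libraries lay above both vehicle-treated libraries in 31 members and below both in 2, as did 15.6% and 16.2% of all genes. For a single gene, 2 against 2 libraries allow no two-sided exact permutation p below 0.333. Fold changes on this scale are smaller than the true ratio for genes near 0.5 CPM.

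**Figure D1:**
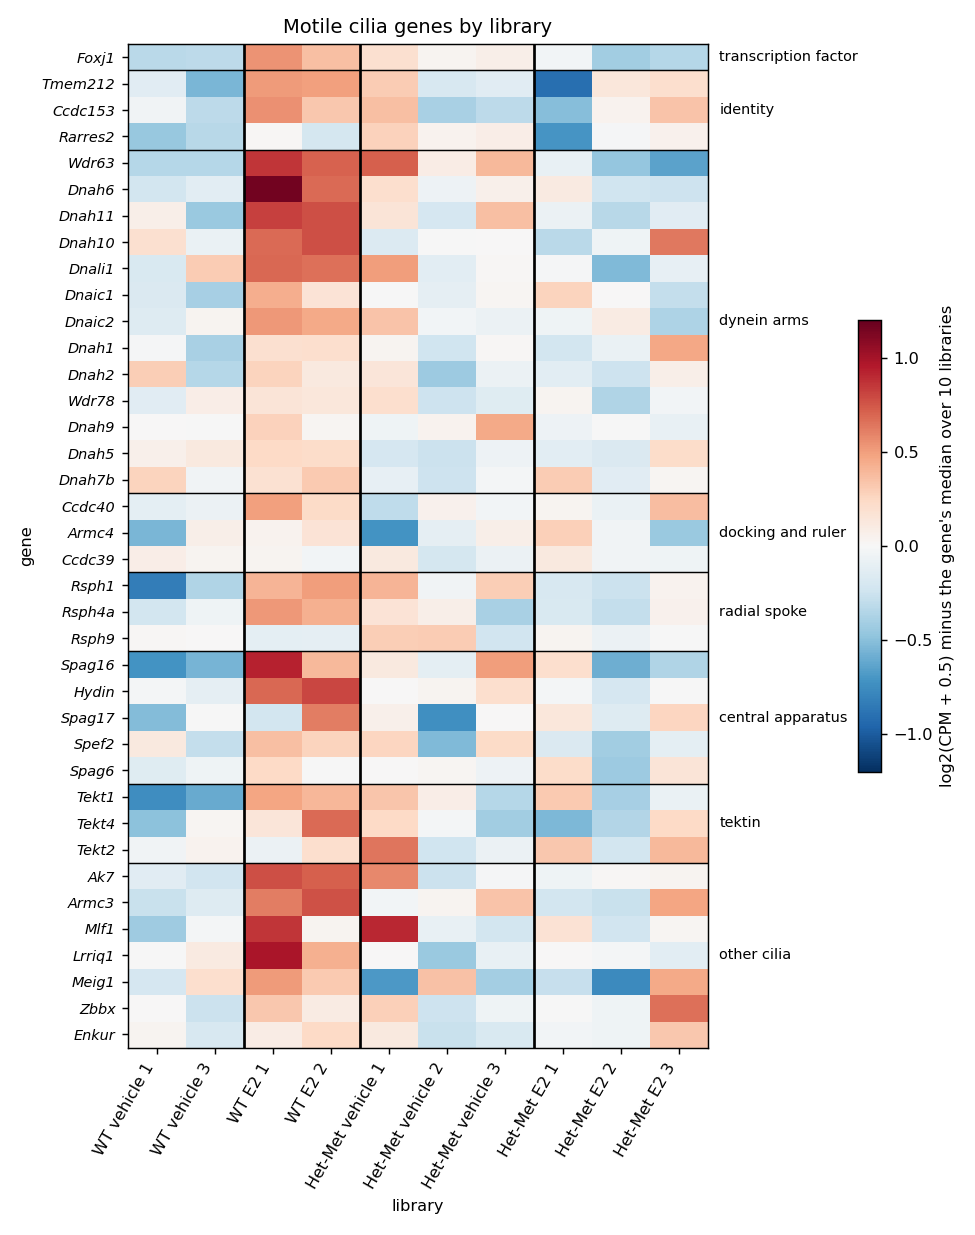
Level of the 38 motile cilia genes (rows, grouped by role) in the 10 libraries (columns), as log2(CPM + 0.5) minus each gene's median over the 10 libraries. The E2-treated WT libraries are the most evenly red, with 35 and 34 of 38 genes above their own median, and the vehicle-treated WT libraries have 11 each.

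The plot of all genes by library shows the same in each library. In the E2-treated WT libraries 35 and 34 of the 38 genes lay above their own median over the 10 libraries, and in the vehicle-treated WT libraries 11 and 11 did. The vehicle-treated Het-Met libraries had 29, 12 and 17 genes above, and the E2-treated Het-Met libraries 15, 5 and 21. Over all tested genes the share per library lay between 44.6% and 57.2%. E2-treated WT replicate 1 was the highest of the 10 libraries for 19 members and replicate 2 for 7. In 14 members both of these libraries exceeded the other 8, as they did in 3.60% of all genes. Those 14 were Foxj1, Tmem212, Dnah6, Dnah10, Dnah11, Dnali1, Dnaic2, Rsph4a, Hydin, Tekt1, Armc3, Ak7, Spef2 and Lrriq1. In bulk RNA, fewer cells of a type and less RNA per cell cannot be told apart.

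Foxj1 (chr11:116330704-116335399, GRCm38) encodes the transcription factor that drives the motile cilia program. Its level was 8.42 and 8.52 CPM in vehicle-treated WT mice, 15.7 and 13.9 CPM in E2-treated WT mice, 12.3, 10.9 and 11.3 CPM in vehicle-treated Het-Met mice and 10.4, 7.88 and 8.35 CPM in E2-treated Het-Met mice. The E2-treated libraries were above the vehicle-treated ones in WT mice and below them in Het-Met mice, without overlap in either genotype. Group means were 8.47 ± 0.0730 (SD, n = 2), 14.8 ± 1.32 (n = 2), 11.5 ± 0.699 (n = 3) and 8.88 ± 1.35 CPM (n = 3). The log2 fold change with E2 was 0.77 in WT mice (SE 0.15, limma adjusted p = 0.112) and -0.36 in Het-Met mice (SE 0.12, limma adjusted p = 0.753).

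Among the inner dynein arm genes, Dnah6, a dynein heavy chain gene, had the smallest p with E2 in WT mice. It was at 3.93 and 4.21 CPM with vehicle and 11.0 and 7.74 CPM with E2 in WT mice, and in Het-Met mice at 5.41, 4.44 and 4.87 CPM with vehicle and 5.04, 3.87 and 3.84 CPM with E2. Both E2-treated WT libraries stood above the other 8, and in Het-Met mice the treatments overlapped. Its log2 fold change with E2 was 1.09 in WT mice (SE 0.19, limma adjusted p = 0.0767) and -0.19 in Het-Met mice (SE 0.16, limma adjusted p = 0.967). Wdr63, which encodes an intermediate chain of an inner arm, was at 0.694 CPM in each of the vehicle-treated WT libraries, 2.24 and 1.98 CPM in E2-treated WT mice, 1.99, 1.11 and 1.48 CPM in vehicle-treated Het-Met mice and 0.930, 0.599 and 0.474 CPM in E2-treated Het-Met mice. The order of treatments was opposite in the genotypes, again without overlap, on 10 to 50 reads per library. Its log2 fold change with E2 was 1.13 in WT mice (SE 0.25, limma adjusted p = 0.258) and -0.79 in Het-Met mice (SE 0.21, limma adjusted p = 0.668).

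Dnah11, an outer arm heavy chain gene, was at 1.99 and 1.24 CPM with vehicle and 3.68 and 3.57 CPM with E2 in WT mice, and at 2.13, 1.56 and 2.55 CPM with vehicle and 1.76, 1.38 and 1.66 CPM with E2 in Het-Met mice. Dnah10, an inner arm heavy chain gene, was at 2.45 and 1.93 CPM and 3.63 and 3.91 CPM in the same order in WT mice, and at 1.80, 2.07 and 2.09 CPM and 1.57, 1.98 and 3.51 CPM in Het-Met mice. Both genes were highest in the E2-treated WT libraries. All 13 dynein arm genes had a fitted log2 fold change above 0 with E2 in WT mice, between 0.13 and 1.13 with a median of 0.55. At an unadjusted p under 0.05 and a fold change above 1.3, 8 of them were higher (1.69% of all genes). The smallest were those of Dnah7b (0.13), Dnah5 (0.14) and Dnah9 (0.15). Dnah9, an outer arm heavy chain gene, had the highest mean level of all members, 23.9 CPM. In Het-Met mice the median of the 13 genes was -0.06, with 6 above 0 and 7 below.

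The radial spokes carry signals from the central apparatus to the dynein arms. Rsph1 was at 3.38 and 4.86 CPM with vehicle and 8.61 and 9.20 CPM with E2 in WT mice, and at 8.63, 6.16 and 7.93 CPM with vehicle and 5.53, 5.26 and 6.59 CPM with E2 in Het-Met mice. All 3 vehicle-treated Het-Met libraries lay above both vehicle-treated WT libraries. The log2 fold change of Rsph1 with E2 was 1.04 in WT mice (SE 0.19, limma adjusted p = 0.105) and -0.35 in Het-Met mice (SE 0.16, limma adjusted p = 0.872). Rsph9, from the same spoke head, stayed apart from this pattern. It was at 12.6 and 12.5 CPM with vehicle and 11.5 and 11.6 CPM with E2 in WT mice, and at 15.4, 15.5 and 10.6 CPM with vehicle and 12.8, 11.8 and 12.4 CPM with E2 in Het-Met mice. The E2-treated libraries lay slightly below the vehicle-treated ones in WT mice and among them in Het-Met mice. Its log2 fold change with E2 was -0.12 (SE 0.16, limma adjusted p = 1.00) in WT mice and -0.14 (SE 0.13, limma adjusted p = 0.973) in Het-Met mice. Rsph4a, the other member of this class, had a log2 fold change of 0.60 in WT mice (SE 0.19, limma adjusted p = 0.716).

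**Figure D2:**
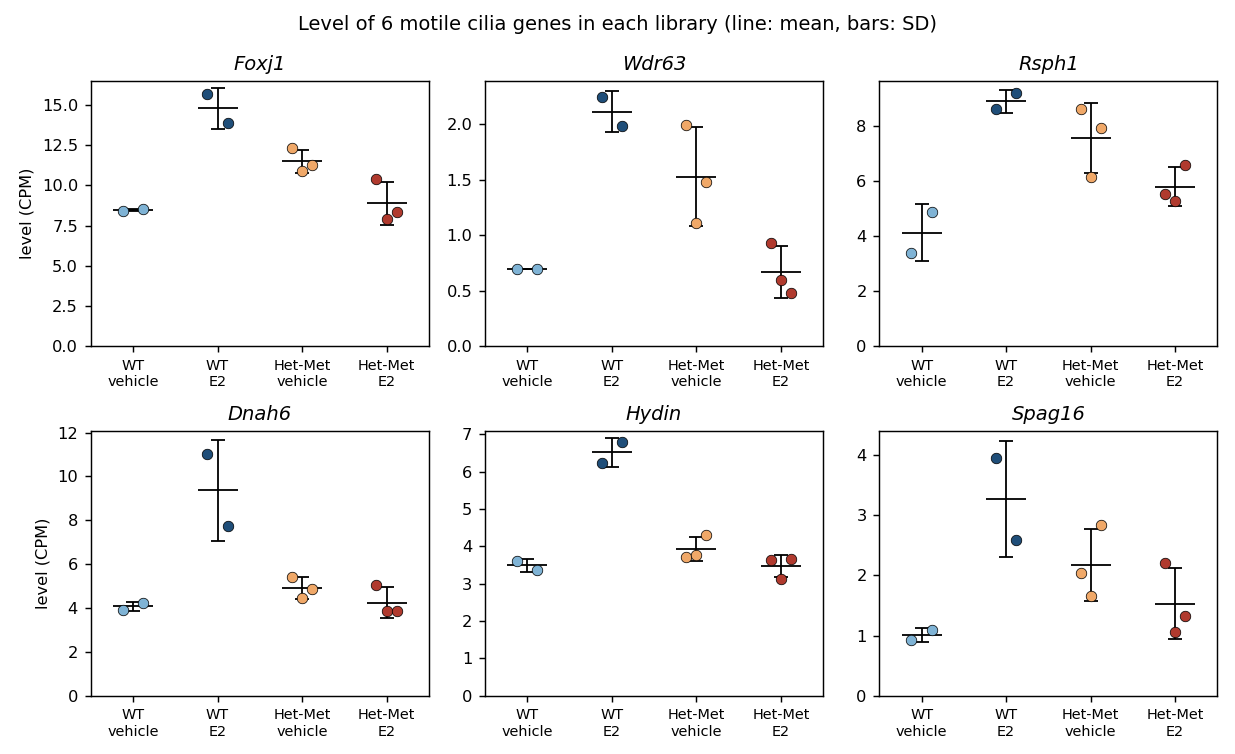
Level in CPM (vertical axes, starting at 0) of Foxj1, Wdr63, Rsph1, Dnah6, Hydin and Spag16 in each library (points) of the 4 groups, with the mean (line) and SD (bars). In all 6 genes the E2-treated WT libraries lie above the vehicle-treated WT libraries, for example 6.24 and 6.79 against 3.61 and 3.37 CPM in Hydin.

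Hydin and Spag16 encode proteins of the central apparatus. Hydin was at 3.61 and 3.37 CPM with vehicle and 6.24 and 6.79 CPM with E2 in WT mice, and at 3.70, 3.78 and 4.31 CPM with vehicle and 3.62, 3.13 and 3.65 CPM with E2 in Het-Met mice. Only the E2-treated WT libraries stood apart, above the other 8. The log2 fold change of Hydin with E2 was 0.81 in WT mice (SE 0.16, limma adjusted p = 0.127) and -0.16 in Het-Met mice (SE 0.13, limma adjusted p = 0.967). Spag16 was at 0.925 and 1.09 CPM with vehicle and 3.95 and 2.58 CPM with E2 in WT mice, and at 2.04, 1.66 and 2.83 CPM with vehicle and 2.20, 1.06 and 1.33 CPM with E2 in Het-Met mice. The E2-treated WT libraries were above the vehicle-treated WT libraries, while vehicle-treated Het-Met replicate 3 lay between them and the treatments overlapped in Het-Met mice. Spag16 had the largest log2 fold change of the set with E2 in WT mice, 1.3 (SE 0.28, limma adjusted p = 0.198), and one of -0.42 in Het-Met mice (SE 0.23, limma adjusted p = 0.929). The 5 central apparatus genes had a median of 0.46 in WT mice, all above 0, and -0.16 in Het-Met mice, where 4 were below 0.

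Ccdc153, Tmem212 and Rarres2 were included as genes typical of ependymal cells, and Rarres2 encodes chemerin, a secreted protein and not a part of the cilium. Tmem212 was at 1.02 and 0.644 CPM with vehicle and 1.88 and 1.85 CPM with E2 in WT mice, and at 1.57, 0.959 and 1.02 CPM with vehicle and 0.391, 1.34 and 1.42 CPM with E2 in Het-Met mice. Ccdc153 was at 2.96 and 2.38 CPM and 4.71 and 3.95 CPM in the same order in WT mice, and at 4.08, 2.22 and 2.37 CPM and 2.01, 3.18 and 4.03 CPM in Het-Met mice. Rarres2 was at 2.31 and 2.58 CPM and 3.41 and 2.84 CPM in WT mice, and at 4.17, 3.48 and 3.57 CPM and 1.86, 3.32 and 3.51 CPM in Het-Met mice. In WT mice the E2-treated libraries were above the vehicle-treated ones for each of these genes, while in Het-Met mice E2-treated replicate 1 was the lowest library for all 3 and the other two were near the vehicle-treated level. Their log2 fold changes with E2 in WT mice were 0.84 (SE 0.33) for Tmem212, 0.61 (SE 0.28) for Ccdc153 and 0.30 (SE 0.23) for Rarres2, each with a limma adjusted p of 1.00.

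The 3 tektin genes, which encode filament proteins of the microtubule doublets, had log2 fold changes of 1.11 (Tekt1), 0.65 (Tekt4) and 0.06 (Tekt2) with E2 in WT mice. Tekt1 was at 1.67 and 1.88 CPM with vehicle and 4.53 and 4.30 CPM with E2. The 7 further cilia genes, Armc3, Ak7, Meig1, Lrriq1, Mlf1, Enkur and Zbbx, lay between 0.24 and 0.93 with a median of 0.65. Ak7, an adenylate kinase gene, had the largest of these, 0.93 (SE 0.22, limma adjusted p = 0.339). The docking and ruler genes gave smaller values. Ccdc40 and Ccdc39, which encode the ruler that spaces dyneins and spokes along the doublet, had log2 fold changes of 0.45 and -0.06, and Armc4 one of 0.34 (SE 0.32). Armc4 was at 0.278 and 0.694 CPM with vehicle and 0.673 and 0.774 CPM with E2 in WT mice, and at 0.190, 0.555 and 0.696 CPM with vehicle and 0.881, 0.599 and 0.332 CPM with E2 in Het-Met mice, on 4 to 18 reads, and all groups but the E2-treated WT mice spanned a wide range. Across the set 7 members had a log2 fold change within 0.2 of 0.

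In Het-Met mice the same treatment gave no shift of the set in one direction. There were 16 members above 0 and 22 below, and 51.8% of all genes above, with a median log2 fold change of -0.08 (range -0.79 to 0.30), and this median turned to 0.01 without vehicle-treated Het-Met replicate 1 and to 0.02 without E2-treated Het-Met replicate 2. No member passed the limma test, nor did any of the 15081 genes (0.00%), and the smallest adjusted p was 0.668, that of Wdr63. At an unadjusted p under 0.05 there were 3 members, Wdr63, Foxj1 and Rsph1, all lower with E2, and only Wdr63 also had a fold change past 1.3 (0.928% of all genes were lower and 1.02% higher by this rule). edgeR on the recovered reads called 0 members by adjusted p. The E2-treated libraries lay below all vehicle-treated libraries in 3 members and above in 0, as did 5.11% and 5.15% of all genes. With 3 libraries against 3 the smallest exact permutation p is 0.100.

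**Figure D3:**
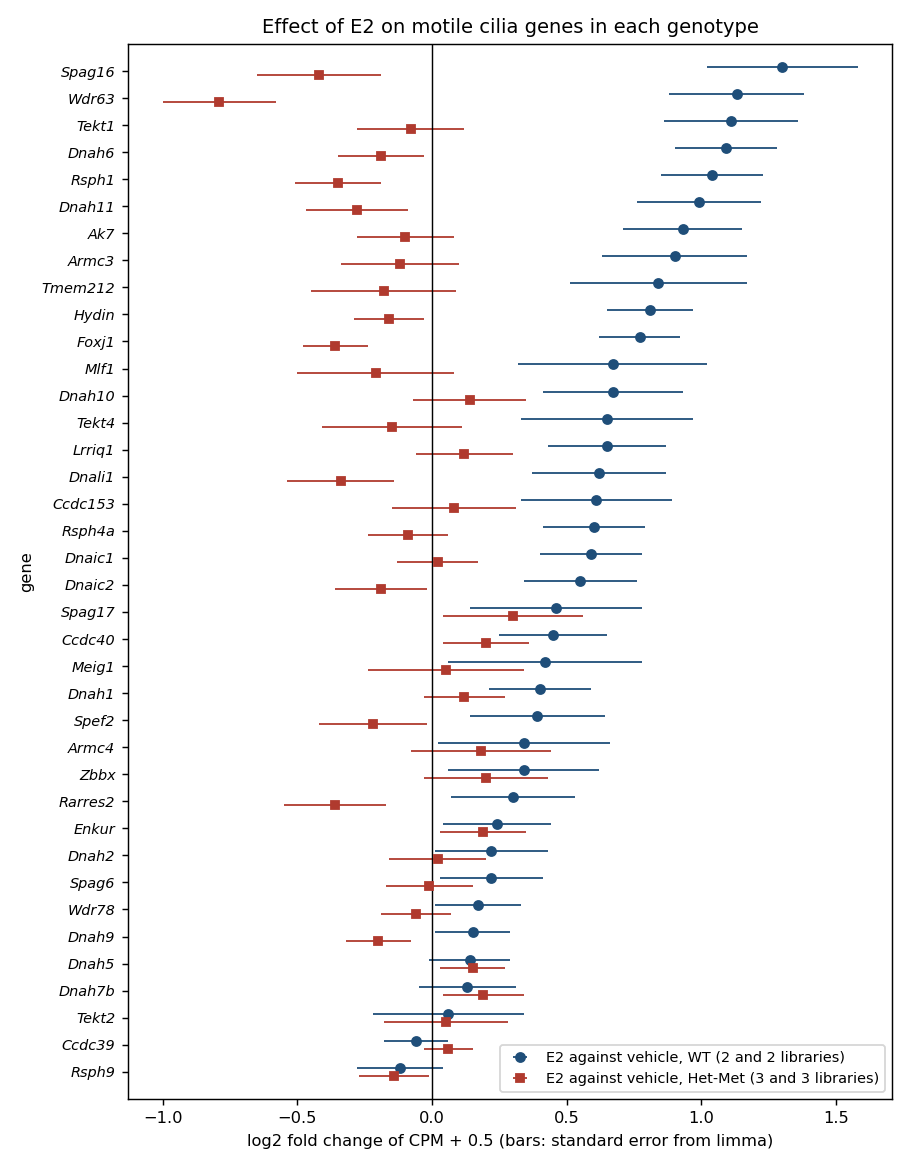
Fitted log2 fold change of CPM + 0.5 between E2 and vehicle (horizontal axis) for the 38 motile cilia genes (rows, ordered by the value in WT mice), in WT mice (circles) and Het-Met mice (squares), with standard errors from limma (bars). In WT mice 36 genes lie above 0, and in Het-Met mice 16 do.

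The next question was whether the genotypes differed within a treatment. With vehicle, 27 members were higher in Het-Met than in WT mice and 11 lower, against 55.3% of all genes higher, with a median log2 fold change of 0.12 (range -0.27 to 0.81). None passed the limma test (0.00663% of all genes did). edgeR called 0 members, of 1 gene in all, and DESeq2 1, Rsph1, of 34 genes in all. At an unadjusted p under 0.05 and a fold change above 1.3, 6 members were higher (1.59% of all genes) and 0 lower (1.70%). These 6 were Rsph1, Wdr63, Spag16, Foxj1, Tekt1 and Rarres2. The largest values were those of Rsph1 (0.81, SE 0.18, limma adjusted p = 0.215), Spag16 (0.81, SE 0.26, limma adjusted p = 0.357) and Wdr63 (0.74, SE 0.23, limma adjusted p = 0.350). Libraries did not overlap in 10 members that were higher and 1 that was lower, as in 14.8% and 9.89% of all genes.

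With E2 the order was the other way. In E2-treated mice 35 members were lower in Het-Met than in WT mice and 3 higher, whereas 57.3% of all genes were higher, and the median log2 fold change was -0.48 (range -1.18 to 0.10). No member passed the limma test (4 genes in all did, 0.0265%), and the smallest adjusted p was 0.0537, that of Dnah6 (log2 fold change -1.04, SE 0.17). Hydin followed with -0.82 (SE 0.15, limma adjusted p = 0.0714), Foxj1 with -0.71 (SE 0.13, limma adjusted p = 0.0813) and Wdr63 with -1.18 (SE 0.23, limma adjusted p = 0.121). At an unadjusted p under 0.05 and a fold change above 1.3, 18 members were lower and 0 higher (2.73% and 1.89% of all genes). edgeR on the recovered reads and DESeq2 called 3 members lower by adjusted p, Foxj1, Dnah6 and Hydin, of 14 and 29 genes in all. Without E2-treated Het-Met replicate 1 limma called Foxj1, Wdr63 and Dnah6, and its count over all genes is not given here. The Het-Met libraries lay below both WT libraries in 20 members and above both in 1, as in 14.7% and 21.1% of all genes. With 2 libraries against 3 the smallest exact permutation p is 0.100. This comparison uses the same E2-treated WT libraries as the comparison within WT mice, so the counts of the one are not independent of the other.

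Whether the effect of E2 differed between genotypes was tested by the interaction, the E2 effect in Het-Met mice minus that in WT mice. Foxj1 and Wdr63 passed this test. The interaction log2 fold change of Foxj1 was -1.13 (SE 0.19, limma adjusted p = 0.0454) and that of Wdr63 was -1.92 (SE 0.33, limma adjusted p = 0.0454), and they were 2 of 11 genes called in all (0.0729%). Just past the threshold were Rsph1 with -1.40 (SE 0.25, limma adjusted p = 0.0522) and Dnah6 with -1.28 (SE 0.25, limma adjusted p = 0.0752), then Spag16 with -1.71 (SE 0.36, limma adjusted p = 0.103) and Hydin with -0.97 (SE 0.21, limma adjusted p = 0.114). The interaction was below 0 in 35 members and above 0 in 3, with a median of -0.55 (range -1.92 to 0.12), and 51.4% of all genes were above 0. At an unadjusted p under 0.05 and a fold change above 1.3, 16 members were lower and 0 higher (2.02% and 1.94% of all genes). By role the medians were -0.80 for tektins, -0.69 for radial spoke genes, -0.65 for the ependymal identity genes, -0.62 for the central apparatus, -0.53 for dynein arms and for the 7 further cilia genes, and -0.16 for the docking and ruler genes.

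The sign of the E2 effect was above 0 in WT and below 0 in Het-Met mice in 21 members and above 0 in both in 15, against 24.7% and 24.3% of all genes. The calls for Foxj1 and Wdr63 were close to the limit. Both were lost (limma adjusted p between 0.0560 and 0.376) when any 1 of 8 libraries was left out, namely vehicle-treated WT replicate 1, each E2-treated WT library, each vehicle-treated Het-Met library and E2-treated Het-Met replicates 2 and 3, and Wdr63 also without vehicle-treated WT replicate 3. Their log2 values without a library stayed between -1.25 and -1.04 for Foxj1 and between -2.07 and -1.76 for Wdr63. Without E2-treated Het-Met replicate 1 limma called 5 members (Foxj1, Wdr63, Rsph1, Spag16 and Dnah6). edgeR on the recovered reads called 3 members (Foxj1, Wdr63 and Rsph1) and DESeq2 5 (these and Spag16 and Dnah6). They called 13 and 37 genes in all, against 11 for limma, and the count over all genes without a library is not given here.

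The choroid plexus markers moved with these comparisons. Their level was higher with E2 in WT mice in 17 of 17 genes (median log2 fold change 2.06) and lower with E2 in Het-Met mice in 17 of 17 (-1.24). Between genotypes it was higher in Het-Met mice with vehicle in 17 of 17 (1.65) and lower with E2 in 17 of 17 (-1.58). The genotype differences of the members thus came with a choroid plexus difference of the same direction. The median interaction was -3.32, with 0 genes called by limma and adjustment over all genes and 17 lower at an unadjusted p under 0.05. The 3 markers with the highest CPM, Ttr, Enpp2 and Kl, which encode transthyretin, autotaxin and klotho, had interaction values of -4.61 (SE 1.05), -2.45 (SE 0.50) and -2.36 (SE 0.50). No marker of this list was at 0 in all libraries. Without vehicle-treated WT replicate 1 the members' median with E2 in WT mice was 0.49, with 36 above 0, and the median interaction was -0.60. Without E2-treated Het-Met replicate 2 or 3 the median interaction was -0.55 or -0.68. Foxj1 and the summed choroid plexus level had the same 4 highest libraries (both E2-treated WT libraries and vehicle-treated Het-Met replicates 1 and 3) and the same 3 lowest (vehicle-treated WT replicate 1 and E2-treated Het-Met replicates 2 and 3). Libraries of one group were also compared pair by pair, counting the members that were higher in the library with more choroid plexus RNA. In vehicle-treated Het-Met mice these were 26, 29 and 29 of 38 in the 3 pairs, with median log2 differences of 0.13, 0.27 and 0.14 for the members and 0.07, 0.46 and 0.40 for the choroid plexus markers. In E2-treated WT mice they were 26 of 38, with medians of 0.06 and 0.46. In vehicle-treated WT mice they were 21 of 38, with medians of 0.05 and 1.72, and the summed levels differed 1.02-fold for the members (193 and 189 CPM, the lower value in the library with more choroid plexus RNA) and 4.53-fold for the markers. In E2-treated Het-Met mice they were 29, 18 and 8 of 38, with medians of 0.14, -0.03 and -0.30 for the members and 1.45, 1.68 and 0.30 for the markers. Over all tested genes the share that was higher lay between 45.7% and 57.5%. In 6 of the 8 pairs the members' median was above 0, and in 2 it was below. Pairs within a Het-Met group share libraries, so the 8 pairs are not independent. Where the markers differed most, by 1.72, 1.68 and 1.45, the members' medians were 0.05, -0.03 and 0.14. Whether the members follow the choroid plexus RNA within groups was not tested. With the choroid plexus level as a covariate the median log2 fold change with E2 in WT mice was 0.54, with 32 members above 0. At an unadjusted p under 0.05 and a fold change above 1.3, 13 were higher. The median interaction was -0.58, with 11 members lower by this rule. The shares of all genes by this rule with the covariate are not given here, so these counts have no baseline. In both comparisons limma with the covariate called 0 members and 0 of all genes. The choroid plexus level itself differed between the groups. The interaction values of Foxj1 and Wdr63 were then -0.74 and -1.29, each with a limma adjusted p of 1.00.

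**Figure D4:**
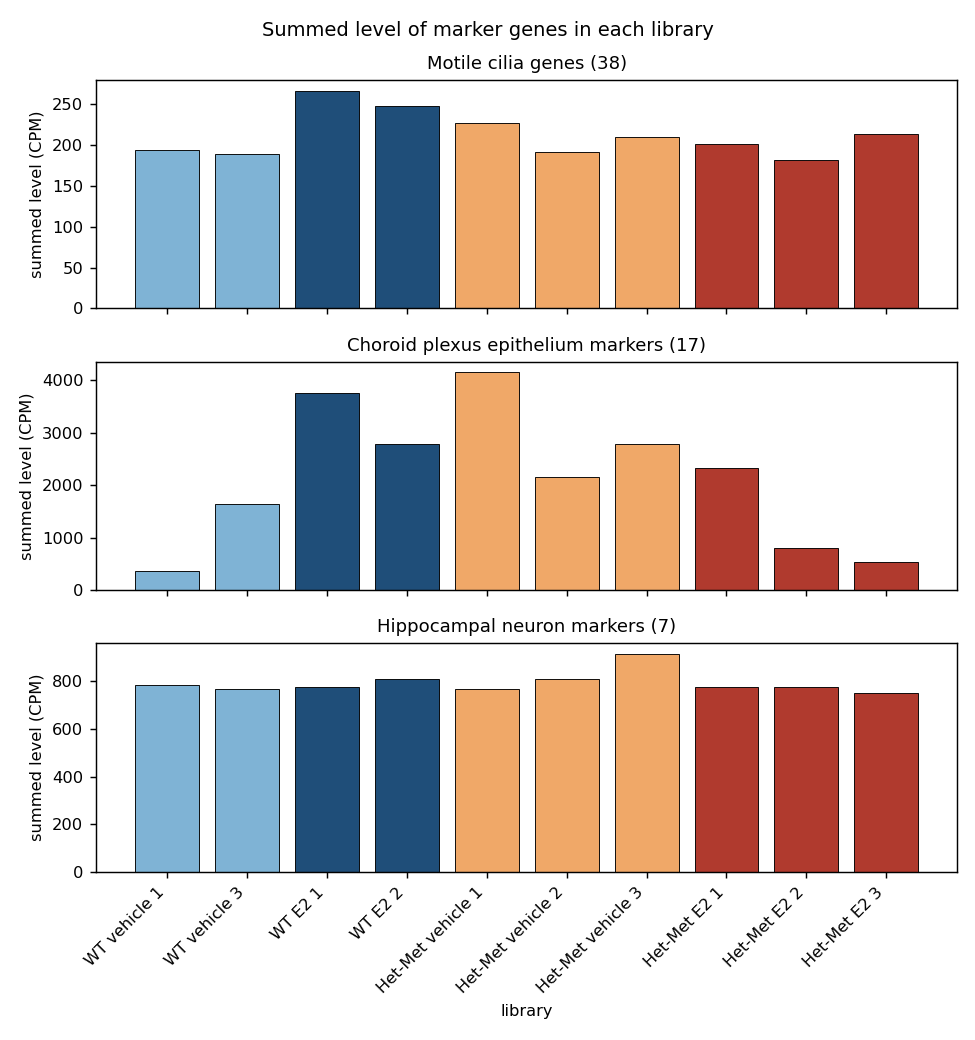
Summed level in CPM (vertical axes, starting at 0) of the 38 motile cilia genes, 17 choroid plexus epithelium markers and 7 hippocampal neuron markers in each of the 10 libraries (bars). The motile cilia sum lies between 181 and 266 CPM and is highest in the E2-treated WT libraries, while the choroid plexus sum lies between 363 and 4149 CPM and is highest in vehicle-treated Het-Met replicate 1.

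Other tissue markers gave smaller differences. The summed level of 7 hippocampal neuron markers lay between 752 and 914 CPM, with a median interaction of -0.22, and 1 of them, Fibcd1, was called lower. That of 9 meningeal markers lay between 314 and 457 CPM, with a median interaction of -0.21, and 1 of them, Igf2, was called lower. That of 7 thalamic markers lay between 80.4 and 126 CPM, with a median interaction of 0.29 and 0 called (1 higher at an unadjusted p under 0.05). Among 7 further ependymal genes, of which 6 passed the level limit, 5 had an interaction below 0, with a median of -0.49 and 0 called by limma (2 lower at an unadjusted p under 0.05). 1500015O10Rik had the smallest p of these, with an interaction of -3.42 (SE 0.70, limma adjusted p = 0.0976). It was at 1.80 and 7.24 CPM in vehicle-treated and 16.2 and 14.4 CPM in E2-treated WT mice, and at 21.9, 9.49 and 13.2 CPM in vehicle-treated and 10.3, 3.60 and 2.47 CPM in E2-treated Het-Met mice. It was higher in vehicle-treated WT replicate 3 than in replicate 1, as the choroid plexus markers were. Like their summed level, it was highest in vehicle-treated Het-Met replicate 1 and lowest in vehicle-treated WT replicate 1. Which cells its RNA came from was not tested. Fam216b, the second of these genes, had an interaction of -0.71 (SE 0.33, limma adjusted p = 0.896).

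The rest of the cilium machinery was followed in lists of other genes. Of 44 other tested axonemal genes, 34 were above 0 with E2 in WT mice, with a median log2 fold change of 0.35. At an unadjusted p under 0.05 and a fold change above 1.3, 15 of them were higher (1.69% of all genes). Their median interaction was -0.35, with 34 below 0 and 0 called by limma. By unadjusted p with the fold limit 10 were lower and 1 higher (2.02% and 1.94% of all genes). The smallest p here were those of Drc7, which encodes a subunit of the nexin-dynein regulatory complex, with -2.29 (SE 0.51, limma adjusted p = 0.125), and Spag8, with -1.04 (SE 0.25, limma adjusted p = 0.170). Drc7 was at 2.91 and 8.82 CPM in the vehicle-treated WT libraries and so differed between them as the choroid plexus markers did. The 9 tested dynein assembly factors, which fold dynein arms in the cytoplasm before they enter the cilium, had medians of 0.13 with E2 in WT mice and -0.34 in the interaction, with 0 called by limma and 2 lower by unadjusted p, Dnaaf3 (-1.27, SE 0.41) and Dyx1c1 (-0.63, SE 0.22).

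Genes further from the axoneme had medians nearer to no change. Their summed levels were 1421 to 1572 CPM (intraflagellar transport), 401 to 440 CPM (primary cilium and BBSome) and 267 to 294 CPM (regulators of multiciliation). Those of the 38 members were 181 to 266 CPM. In bulk RNA a change confined to cells with motile cilia cannot be told apart from the RNA of other cells. The 14 tested regulators of multiciliation had a median of 0.00 with E2 in WT mice and -0.03 in the interaction, with 0 called by limma and 2 lower by unadjusted p, Trp73 (-0.88, SE 0.25) and Gmnc (-0.81, SE 0.37), transcriptional regulators that act upstream of Foxj1. The 29 genes of intraflagellar transport, which carries cargo in all cilia, had medians of 0.01 and 0.00, with 0 called by limma and 0 by unadjusted p with the fold limit in any of the 5 comparisons. The largest departures by p in the interaction were those of Kif17 (0.35, SE 0.20) and Ift88 (0.22, SE 0.13). The 14 genes of the primary cilium and BBSome, found on non-motile cilia of neurons, had medians of -0.02 and 0.03, also with 0 called by limma and 0 by unadjusted p with the fold limit in any comparison, and their smallest p were those of Adcy3 (-0.27, SE 0.13) and Bbs2 (0.26, SE 0.13). The differences between these lists were not tested.

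**Figure D5:**
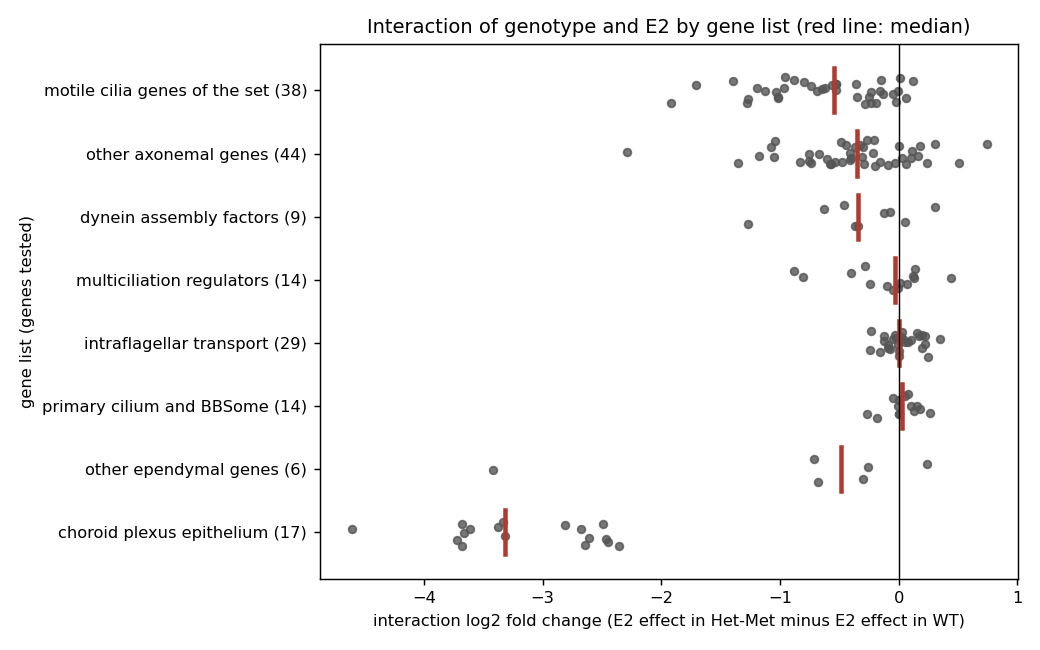
Interaction log2 fold change (E2 effect in Het-Met minus that in WT mice, horizontal axis) of each tested gene (points) in 8 gene lists (rows), with the median of each list (red line). Medians are -0.55 for the motile cilia genes, -0.35 for other axonemal genes, 0.00 for intraflagellar transport, 0.03 for the primary cilium and -3.32 for choroid plexus markers.

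Because some members share sequence with other genes, the set was also described without them, a choice made after seeing the data. The 22 members with no shared exon and no close copy had a median log2 fold change with E2 of 0.63 in WT mice, with 21 above 0, and of -0.11 in Het-Met mice, with 8 above 0. Their median was 0.13 between genotypes with vehicle, -0.59 between genotypes with E2 and -0.72 in the interaction. For Ccdc39, a member near 0, the opposite-strand neighbour was far more abundant, and levels of the neighbours of other members near 0 are not given here. Ttc14 was at 223 to 262 CPM, against 19.6 to 24.6 CPM for Ccdc39, and whether reads of Ttc14 were counted on Ccdc39 was not tested. Foxj1, Wdr63, Rsph1, Spag16 and Tekt1 share no exon sequence in the annotation, while Dnah6 and Hydin share 1.26% and 1.31% of theirs with antisense genes.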

How the data were processed

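RNA of the mouse vHpc was sequenced as 75-bp single-end reads of a stranded kit in a single lane. The authors trimmed, filtered and aligned the reads to mm10 with TopHat2 and deposited CPM per gene. Versions and strand settings were not given in the sources used here. All values (100%) were whole multiples of the worth of 1 read within 0.01, which gave back the reads. limma 3.58.1 (R 4.3.3) fitted 4 group means to log2(CPM + 0.5) of the 15081 genes averaging 0.5 CPM or more, with an intensity trend, and tests were two-sided. Calls needed a Benjamini-Hochberg adjusted p under 0.05 and a fold change above 1.3. Alternatives were edgeR 4.0.16 and DESeq2 1.42.0 on the reads, other pseudocounts, filters and scalings, a replicate block, a choroid plexus covariate and each library left out. Gene positions came from GENCODE for GRCm38 (23376 symbols matched, 679 by an older symbol, 366 not). The members and lists were chosen with earlier results of these data known. Library values are given for Foxj1, Ccdc153, Tmem212, Rarres2, the 3 members of smallest p in each comparison, the 3 highest and 3 lowest per kb, and the member nearest the level limit. Non-members are named by CPM (choroid plexus) or by the 2 smallest interaction p, and other genes were named after their values were seen. The tests were checked on simulated data with changed genes. Replicate libraries differed by more than counting noise (chi-square per degree of freedom 3.40 to 14.1), and p-values measure the spread between pools of 2 animals.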

Additional observations from a re-analysis of the deposited data

Results flagged for a closer look

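Foxj1 and Wdr63 are listed because the interaction term, a test of the difference itself, passed the threshold for a different effect of E2 in WT and Het-Met mice. The interaction log2 fold change was -1.13 for Foxj1 and -1.92 for Wdr63, each with a limma adjusted p of 0.0454. Both calls were lost with no filter on low levels, with the choroid plexus level as a covariate (-0.74 and -1.29, limma adjusted p = 1.00) and when any 1 of 8 libraries was left out. Without the covariate the same test called Igf2 among the meningeal markers, at -1.23 (limma adjusted p = 0.0454), against a median of -0.21 for that list. It also called Fibcd1 among the hippocampal neuron markers, at -0.69 (limma adjusted p = 0.0333). With the choroid plexus covariate limma called 0 of all genes in the interaction, so these calls were lost too. Igf2 was at 131 and 117 CPM with vehicle and 239 and 200 CPM with E2 in WT mice, and at 191, 173 and 179 CPM with vehicle and 180, 123 and 113 CPM with E2 in Het-Met mice. Fibcd1 was at 174 and 166 CPM with vehicle and 202 and 213 CPM with E2 in WT mice, and at 204, 224 and 204 CPM with vehicle and 165, 148 and 164 CPM with E2 in Het-Met mice.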

How the results depend on the processing

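The 2 members called in the interaction became 1 at a pseudocount of 0.1, 0 with no filter, at a mean of at least 2 CPM and with the choroid plexus covariate, 5 with DESeq2 and 0 to 5 with a library left out. Members called between genotypes under E2, 0 in the report, were 1 at a pseudocount of 1 and with median-of-ratios scaling, 3 with edgeR, DESeq2 and only the libraries compared, and 0 to 3 with a library left out. In WT mice with E2 they were 3 with DESeq2 and 0 to 2 with a library left out, and between genotypes under vehicle 1 with DESeq2. The 5 calls and the 3 and 2 of these ranges came without E2-treated Het-Met replicate 1, and the cause was not tested. At an unadjusted p under 0.05 and a fold change above 1.3 the counts were 20, 1, 6, 18 and 16 in the order of the report. The median between genotypes under E2 was -0.59 with edgeR, -0.60 with DESeq2, -0.59 in the members without shared sequence and -0.34 to -0.53 on the log2 scale with a library left out. The median interaction was -0.72 in the members without shared sequence (chosen after seeing the data) and -0.68 to -0.48 with a library left out, and the median with E2 in WT mice was 0.43 to 0.63. Where a group was left with 1 library, that library was assumed to vary like the others.

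Deviations from the group means had correlations of -0.17 to 0.08 between same-numbered libraries and of -0.15 to 0.17 between the others. In groups of 2 or 3 libraries these deviations are tied to each other. Whether the numbers pair the libraries therefore cannot be told from them. With the replicate block 2 members were called with E2 in WT mice, of 10 genes in all, and 5 in the interaction, of 18. In the other comparisons 0 members were called. In the interaction DESeq2 called 37 genes in all and limma with the choroid plexus covariate 0, against 11 in the report. Scaling moved the median of all genes by at most 0.03. With 4 to 678 reads per member and library, small changes of the lowest members were not detectable at this depth.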

Other observations

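Within the E2-treated Het-Met mice the members fell into different orders over libraries, a feature singled out after the values were seen. Tmem212, Rarres2 and Ccdc153 were lowest in replicate 1, with 0.391, 1.86 and 2.01 CPM, and at 1.34, 3.32 and 3.18 CPM in replicate 2 and 1.42, 3.51 and 4.03 CPM in replicate 3. Foxj1, Spag16, Wdr63 and Dnah6 were highest in replicate 1, with 10.4, 2.20, 0.930 and 5.04 CPM. Replicate 1 also had the highest summed choroid plexus level of this group, 2322 CPM. Dnah1 and Zbbx were highest of all 10 libraries in replicate 3, at 23.9 and 1.38 CPM, where the choroid plexus sum was 538 CPM.

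In vehicle-treated Het-Met mice, replicate 1 had 29 of the 38 genes above their own median and replicates 2 and 3 had 12 and 17. Mlf1 was at 2.61 CPM in replicate 1, against 1.06 and 0.928 CPM in replicates 2 and 3, and Ak7 at 4.79 CPM, against 2.47 and 3.01 CPM.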
